A study of Mus musculus with 9 samples.

Results

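Chronic intermittent ethanol exposure was compared with air in mouse hippocampus, in groups that all had control IgG. The comparison used 6 of the 9 libraries of the series, 3 titled CIE+IgG (CIE stands for chronic intermittent ethanol) and 3 titled Air+IgG, and the 14696 of 14779 genes that passed a filter on low counts. Libraries were chosen by their titles, so no measured value entered the choice. Both groups share the IgG, and their labels give the treatment as iso, a word the labels do not explain. The third group of the series, CIE+IL17 Ab, had ethanol with an antibody against IL-17A in its place. Strain, sex, age, ethanol dose and the time between the last exposure and dissection are not stated in the labels. The design text gives 3 mice per group, and no label says how the control IgG was delivered.

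The hippocampus holds the pyramidal neurons of CA1, CA2 and CA3 and the granule cells of the dentate gyrus, circuits needed for new memories. Repeated cycles of ethanol and withdrawal are used in rodents to model alcohol dependence, and ethanol is known to act on GABA-A and NMDA receptors and on several potassium channels. The brain surface, including the folds around the hippocampus, is covered by the meninges, whose arachnoid barrier cells carry organic anion transporters and gap junctions and whose fibroblasts lay down collagen and fibronectin. Border-associated macrophages live in these membranes and along vessels. The choroid plexus and the ciliated ependyma line the ventricle next to the hippocampus, and the striatum and thalamus lie close to it, so that a dissection can take some of them along.

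Total counts of the 6 libraries ranged from 8321339 to 10486963. The label numbers fall into 2 sets, 37 to 39 with 1 library of each group and 54 to 60 with 2 of each, and what they stand for is not given in the sources used here. They were treated as a possible batch, and values within each set are given beside the main results. Levels are given as CPM, counts scaled to a common library total after TMM (trimmed mean of M-values) scaling. All 9 hippocampal markers examined were present in all 6 libraries, among them Fibcd1 of CA1 (69.0 to 129 CPM) and Prox1 of the dentate gyrus (118 to 265 CPM). Libraries that stood apart were Air+IgG 2 and CIE+IgG 3, which lay at opposite ends of the first principal component of the 6 (45.0 and -41.5, with the others between -12.0 and 12.3). Air+IgG 2 also held 593544 counts of Lars2, a mitochondrial leucyl-tRNA synthetase, against 301 to 2167 in the other 5.

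Across the transcriptome no single gene passed the main test. The quasi-likelihood test of edgeR called 0 genes at an adjusted p under 0.05 (percent called 0, smallest adjusted p 0.791), with 406 genes at an unadjusted p under 0.05 (2.76% of those tested), 243 of them higher (1.65%) and 163 lower (1.11%) with ethanol. limma-voom also called 0, with 374 at an unadjusted p under 0.05. DESeq2 called 6 genes (0.0408%), with 370 at an unadjusted p under 0.05. All 6 were lower with ethanol, and all belong to the list of meningeal fibroblast and arachnoid barrier genes: Ptgds, Slc22a6, Gjb2, Fn1, Fmod and Slc13a3. That list was chosen with earlier results of these data known, so the shared membership is not independent evidence. In a single simulated data set of this design the share of false calls was above the threshold for edgeR, limma-voom and DESeq2, and highest for DESeq2. A single run cannot tell a small excess over the threshold from variation between runs. The simulated libraries did not differ in tissue composition. Without CIE+IgG 3 and Air+IgG 2 DESeq2 called 3 genes, of which Ptgds was 1. The DESeq2 count was 2 without CIE+IgG 1 and 21 without CIE+IgG 2, of which 6 were lower. The median log2 fold change over all genes was -0.01, and 48.0% of genes lay above 0. In 682 genes every ethanol library lay above every air library (4.64%), and in 706 every one lay below (4.8%), together 9.44% of genes.

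**Figure D1:**
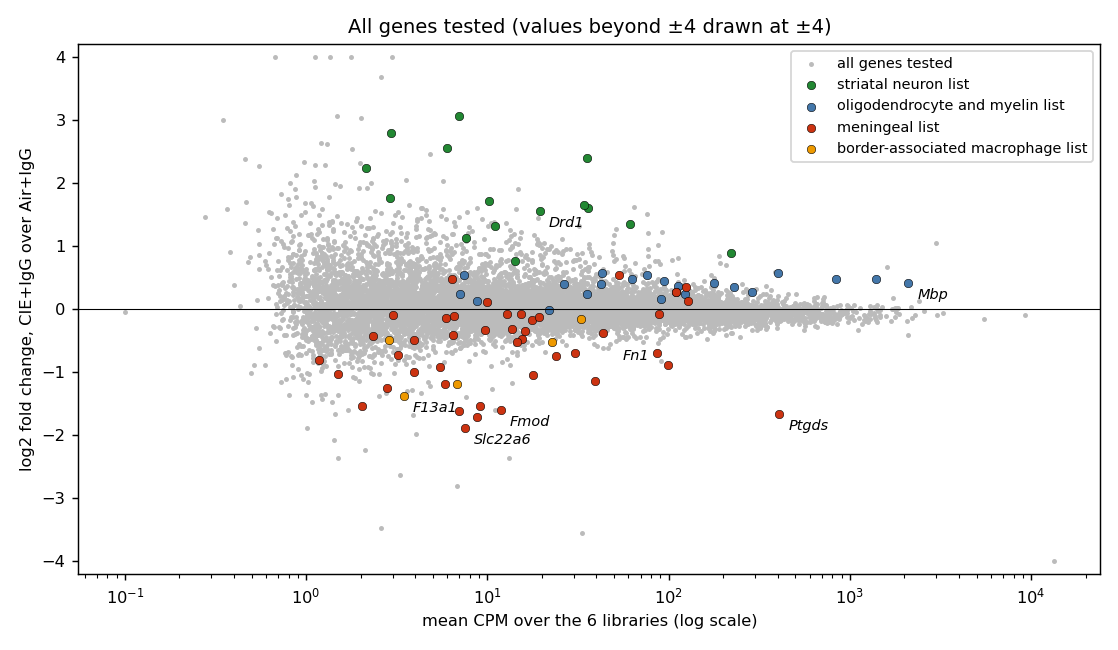
Log2 fold change (CIE+IgG over Air+IgG) of every gene tested against its mean CPM over the 6 libraries (log axis), with 4 gene lists in colour and values beyond 4 drawn at 4. Most meningeal genes (red) sit below 0, the striatal genes (green) lie between 0.76 and 3.05, and the myelin genes (blue) sit just above 0.

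Slc22a6 (ENSMUSG00000024650, chromosome 19, 8618039 to 8628299, plus strand, GENCODE M21 on GRCm38) encodes OAT1, an organic anion transporter found in the meningeal barrier and the kidney. It measured 8.13, 15.9 and 11.7 CPM in the air libraries and 3.87, 2.46 and 3.26 CPM in the ethanol libraries. The lowest air library was above the highest ethanol library, with means of 11.9 ± 3.87 and 3.20 ± 0.707 CPM (SD, n = 3). Its log2 fold change was -1.89 (SE 0.29), with an adjusted p of 0.000219 by DESeq2 and 0.791 by edgeR. Within label numbers 54 to 60 the log2 difference was -1.73, and within 37 to 39 it was -1.70. Slc13a3 (ENSMUSG00000018459), a sodium-coupled dicarboxylate carrier, had 18.5, 30.0 and 24.1 CPM in air and 12.0, 11.0 and 11.8 CPM with ethanol. The ethanol libraries lay close together and below all air libraries (log2 fold change -1.05, SE 0.21, DESeq2 adjusted p 0.0283).

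Ptgds (ENSMUSG00000015090, chromosome 2, 25466709 to 25470046, minus strand) encodes lipocalin-type prostaglandin D synthase, made by leptomeningeal cells and oligodendrocytes. It measured 441, 893 and 522 CPM in air and 209, 147 and 231 CPM with ethanol, so that the groups did not overlap. The means were 619 ± 241 and 196 ± 43.3 CPM (SD, n = 3). Its log2 fold change was -1.66 (SE 0.27), with a DESeq2 adjusted p of 6.13e-06 and an edgeR adjusted p of 0.791, and Ptgds was called in every other DESeq2 fit run, which left out libraries, the third group or label numbers 37 to 39. Gjb2 (ENSMUSG00000046352, chromosome 14, 57098600 to 57104702, minus strand), the gap junction protein connexin 26, had 10.8, 17.6 and 12.2 CPM in air and 3.97, 3.86 and 6.06 CPM with ethanol. No ethanol library reached the air range (log2 fold change -1.53, SE 0.26, DESeq2 adjusted p 0.00147).

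Fmod, the small proteoglycan fibromodulin that binds collagen, measured 12.6, 20.0 and 21.1 CPM in air and 6.01, 3.16 and 8.39 CPM with ethanol. The groups did not overlap (log2 fold change -1.60, SE 0.34, DESeq2 adjusted p 0.0224). Fn1, fibronectin, measured 102, 125 and 93.8 CPM in air and 55.7, 70.6 and 72.1 CPM with ethanol. Every ethanol library lay below every air library (log2 fold change -0.69, SE 0.13, DESeq2 adjusted p 0.0206). In the fits of 54 to 60 alone, DESeq2 called 2 genes, Ptgds and the predicted gene Gm14308.

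**Figure D2:**
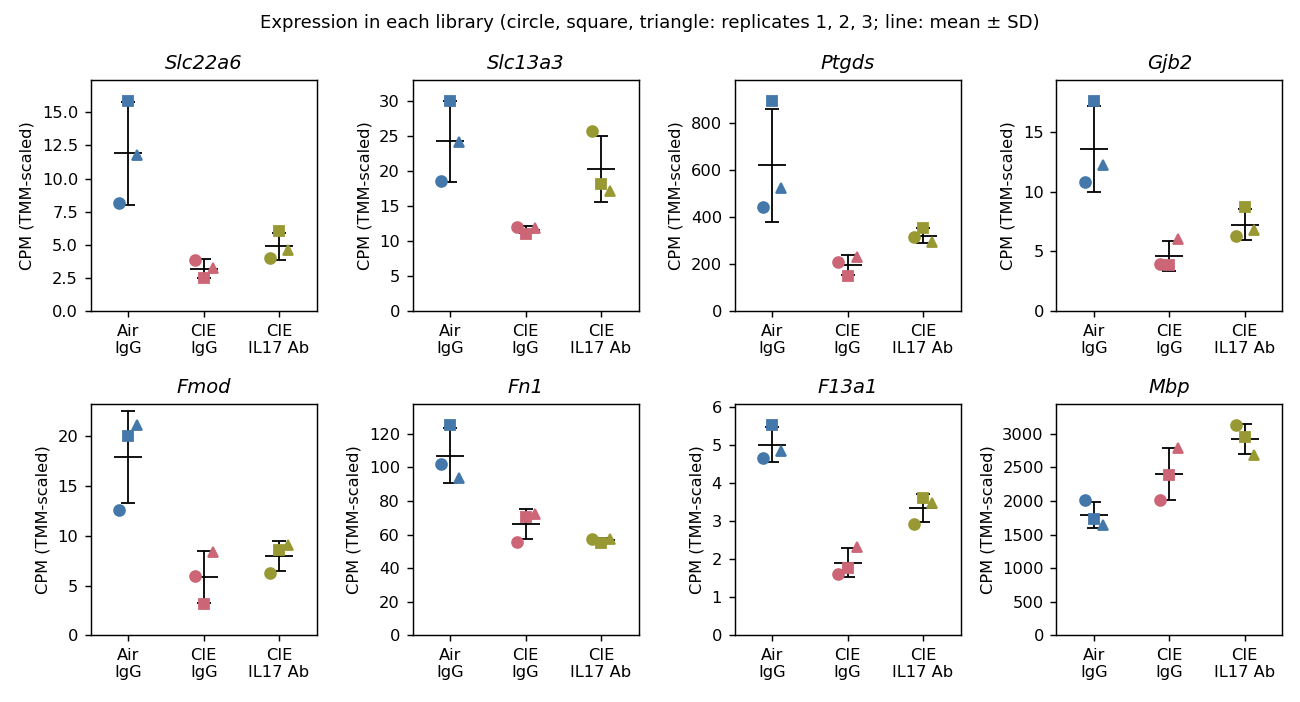
CPM of 8 genes in each library of the 3 groups of the series (circle, square and triangle for replicates 1, 2 and 3, line and bars for mean and SD). The 7 meningeal and macrophage genes are lower in all CIE+IgG libraries than in all Air+IgG libraries, and Mbp is higher, by a narrow margin.

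Of these genes 3 have promoter windows in RefSeq that lie wholly before the gene model used here, and their sequences are shown since the genes were lower together. Each is the 250 bases before the RefSeq transcription start on GRCm38.p6, 5′ to 3′ on the gene's strand. Capitals mark matches to the CCAAT box (CCAAT) or the GC box (GGGCGG) on either strand, and the run CCAATTGG holds 2 overlapping CCAAT matches, 1 per strand. The windows are chr19:8617746-8617995 (plus strand) for Slc22a6, chr14:57104703-57104952 (minus strand) for Gjb2 and chr1:134037004-134037253 (plus strand) for Fmod.
Slc22a6: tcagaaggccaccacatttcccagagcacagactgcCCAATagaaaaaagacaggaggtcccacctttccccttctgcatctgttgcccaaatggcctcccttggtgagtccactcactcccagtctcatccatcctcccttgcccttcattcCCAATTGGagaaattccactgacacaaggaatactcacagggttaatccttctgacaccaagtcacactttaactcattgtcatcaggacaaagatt
Gjb2: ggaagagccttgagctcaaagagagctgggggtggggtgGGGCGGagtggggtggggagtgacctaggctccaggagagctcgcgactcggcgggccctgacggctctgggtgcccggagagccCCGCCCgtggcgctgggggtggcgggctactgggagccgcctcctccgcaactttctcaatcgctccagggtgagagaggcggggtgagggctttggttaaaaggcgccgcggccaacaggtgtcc
Fmod: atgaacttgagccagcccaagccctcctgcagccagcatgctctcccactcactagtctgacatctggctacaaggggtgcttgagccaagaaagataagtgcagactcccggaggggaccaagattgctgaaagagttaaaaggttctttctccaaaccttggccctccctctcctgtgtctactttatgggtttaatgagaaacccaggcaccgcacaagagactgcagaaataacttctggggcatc
The Slc22a6 window held 3 CCAAT matches, the Gjb2 window held 2 GC-box matches, and the Fmod window held no match to any of the 6 motifs searched on both strands. A CCAAT match was present in 34.9% of 14490 promoter windows of the genes tested and in 29.5% of the 44 windows of meningeal list genes. The GC box was present in 55.5% of all windows and in 34.1% of the meningeal ones. An AP-1 motif, TGACTCA, which the Ptgds window held, was present in 3.19% of all windows and in 9.09% of the meningeal ones. The core promoter motif TATAAA was found in 6.57% of all windows and in 9.09% of the meningeal ones. For the E-box, written CACGTG, which several basic helix-loop-helix factors bind, the shares were 7.89% and 9.09%. The forkhead motif searched was GTAAACA, with shares of 2.17% and 4.55%. A gene can have more than 1 window, and 31 of the 43 meningeal genes matched. Shares over a list this small are descriptions of these letters only.

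The meningeal list as a whole lay lower with ethanol. Of its 43 tested members, 37 had lower and 6 higher values with ethanol, with a median log2 fold change of -0.49 against -0.01 for all genes. Of the 43, 16 lay entirely below the air range (37.2%, against 4.8% of all genes tested) and 16 had an unadjusted p under 0.05 in the lower direction (37.2%, against 1.11%). The list was known to hold genes that earlier results had shown as low, so these counts are not independent evidence of its direction. None was called by edgeR, and 6 were by DESeq2, which called 0.0408% of all genes tested. The summed level of the list was 1602 to 2124 CPM in the air libraries and 971 to 1417 CPM in the ethanol libraries. The list median was -0.73 within label numbers 54 to 60 and -0.28 within 37 to 39. In bulk tissue fewer cells of a type and less RNA per cell cannot be told apart, and neither can the share of meninges left on the tissue at dissection.

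By role, a grouping made after the values were seen, the transporters were lower in 8 of 8 tested members with a median log2 fold change of -1.03. Slc6a13, the GABA carrier GAT2, measured 7.80, 21.4 and 11.4 CPM in air and 5.69, 2.93 and 3.64 CPM with ethanol (log2 fold change -1.71, SE 0.41). Slc7a11, the cystine/glutamate exchanger xCT, had 102, 158 and 126 CPM in air and 77.5, 58.6 and 73.3 CPM with ethanol (-0.88, SE 0.20). Both groups of values were separate, and neither gene passed DESeq2 (adjusted p 0.0980 and 0.0798). Slc22a8, the related anion transporter OAT3, overlapped between groups, at 19.1 to 21.8 CPM in air and 12.1 to 24.2 CPM with ethanol, and is named after its values were seen.

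Among the matrix genes, 12 of 12 had lower values (median -0.61), of which 4 did not overlap (against 4.8% of all genes). Dcn, the proteoglycan decorin, measured 58.4, 39.4 and 64.4 CPM in air and 31.4, 13.6 and 28.4 CPM with ethanol (log2 fold change -1.14, SE 0.32). Every ethanol library was below every air library, though Dcn is also a CA1 list gene. Itih2, which helps to crosslink hyaluronan, measured 6.07, 11.7 and 6.72 CPM in air and 3.97, 1.64 and 4.94 CPM with ethanol (-1.19, SE 0.38). The fibrillar collagens Col1a1 and Col1a2 overlapped, with log2 fold changes of -0.52 (SE 0.51) and -0.70 (SE 0.37). Aldh1a2, a retinaldehyde dehydrogenase that makes retinoic acid in the meninges, measured 6.61, 14.5 and 10.7 CPM in air and 3.33, 2.93 and 4.01 CPM with ethanol (-1.62, SE 0.41). Its DESeq2 adjusted p was 0.303. The retinoid-binding protein gene Crabp2 and the epithelial cadherin gene Cdh1, both named after their values were seen, had log2 fold changes of -1.04 (SE 0.40) and -1.25 (SE 0.47) without overlap. The growth factor and growth factor binding genes went both ways, with 2 of 5 lower.

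Border-associated macrophage genes lay in the same direction. Of 13 listed, 8 were in the table and 5 passed the filter, and all 5 had lower values with ethanol (median -0.53, 3 of the 5 without overlap, against 4.8% of all genes). The macrophage list was also chosen with earlier results of these data known, so these counts are not independent evidence. The median was -0.98 within label numbers 54 to 60 and -0.37 within 37 to 39. F13a1, coagulation factor XIII subunit A and a marker of these macrophages, measured 4.66, 5.51 and 4.83 CPM in air and 1.61, 1.76 and 2.33 CPM with ethanol. No ethanol library reached the lowest air library (log2 fold change -1.38, SE 0.23, DESeq2 adjusted p 0.0565). Mrc1, the mannose receptor CD206, measured 6.07, 12.9 and 9.66 CPM in air and 5.69, 2.11 and 4.57 CPM with ethanol (-1.19, SE 0.39), a narrow separation. Microglia, the macrophages of the brain tissue itself, had a list median of 0.01 over 24 genes, of which 13 had higher values with ethanol. Their markers Tmem119 (-0.12, SE 0.11), P2ry12 (-0.03, SE 0.10) and Aif1 (-0.33, SE 0.24) overlapped between groups, and Aif1 was the lowest of the list. Sall1 was higher in all ethanol libraries (0.26, SE 0.10), the 1 member of the 24 without overlap, against 9.44% of all genes in either direction.

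Of the pericyte and smooth muscle list, 13 of 19 genes had lower values (median -0.21, and 0.01 without Air+IgG 2), 3 without overlap, against 4.8% of all genes. Vtn, vitronectin, a pericyte product, measured 52.0, 70.1 and 59.6 CPM in air and 42.1, 43.5 and 42.2 CPM with ethanol (log2 fold change -0.51, SE 0.13). The ethanol libraries were nearly equal and all lower. Acta2, smooth muscle actin, measured 11.3, 26.6 and 11.0 CPM in air and 10.3, 8.31 and 9.32 CPM with ethanol (-0.79, SE 0.32). Here the separation was small except for the high library Air+IgG 2. The endothelial list had a median of 0.08 over 28 genes, with Vwf, von Willebrand factor, at -0.56 (SE 0.29) and overlapping.

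Of the 15 genes with the smallest p, 14 were lower with ethanol and 9 belonged to the meningeal or macrophage lists. These lists hold 43 and 5 of the 14696 genes tested. They were chosen with earlier results of these data known, so the 9 are not independent evidence. Genes of the 15 outside both lists included Ranbp3l, a nuclear export adaptor for SMAD proteins. It was at 10.2, 20.6 and 14.1 CPM in air and 7.20, 7.14 and 4.38 CPM with ethanol (-1.26, SE 0.32). Lama4, a laminin chain of vessel basement membranes, had 13.2, 14.5 and 16.6 CPM in air and 10.6, 10.8 and 10.1 CPM with ethanol (-0.50, SE 0.12). Both genes were lower in all ethanol libraries. Sphk1, sphingosine kinase 1, was at -1.38 (SE 0.32), and Pcdhb4, a protocadherin, at -0.83 (SE 0.18). Gpr182, an endothelial receptor, was at -1.29 (SE 0.30). Anln, which encodes the actin-binding anillin and marks myelinating cells in the brain, was the 1 higher gene of the 15. It measured 57.6, 47.9 and 54.9 CPM in air and 66.2, 76.5 and 87.2 CPM with ethanol (0.52, SE 0.13), with no overlap.

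Myelin genes leaned the other way. Of 22 oligodendrocyte and myelin genes, 21 had higher values with ethanol (median 0.40), 9 of them without overlap (40.9%, against 4.64% of all genes) and 10 with an unadjusted p under 0.05 (45.5%, against 1.65%), and none was called. Mbp, myelin basic protein, measured 2013, 1724 and 1645 CPM in air and 2018, 2382 and 2790 CPM with ethanol (log2 fold change 0.42, SE 0.14). The lowest ethanol library barely exceeded the highest air library. Myrf, the transcription factor that drives myelin genes, measured 59.2, 55.7 and 43.5 CPM in air and 60.4, 71.0 and 88.5 CPM with ethanol (0.48, SE 0.16). Fa2h, which hydroxylates myelin lipids, was at 0.39 (SE 0.12) without overlap. In each of these 3 genes CIE+IgG 3 was the highest of the 6 libraries. The list score, the mean log2 CPM deviation of its members, was -0.093 in CIE+IgG 1, within the air range of -0.24 to -0.090. It was 0.13 in CIE+IgG 2 and 0.48 in CIE+IgG 3. This list too was chosen with earlier results of these data known. The list median was 0.20 within label numbers 54 to 60 and 0.70 within 37 to 39, and 0.15 without CIE+IgG 3 and Air+IgG 2. The 11 precursor cell genes had a median of 0.01, with 2 higher and 1 lower without overlap, against 9.44% of all genes in either direction. Among them Neu4, a sialidase, measured 11.2, 9.14 and 10.9 CPM in air and 8.38, 7.84 and 7.46 CPM with ethanol (-0.40, SE 0.14). Sox10, which marks the whole lineage, was at 0.36 (SE 0.12), and neither gene overlapped.

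**Figure D3:**
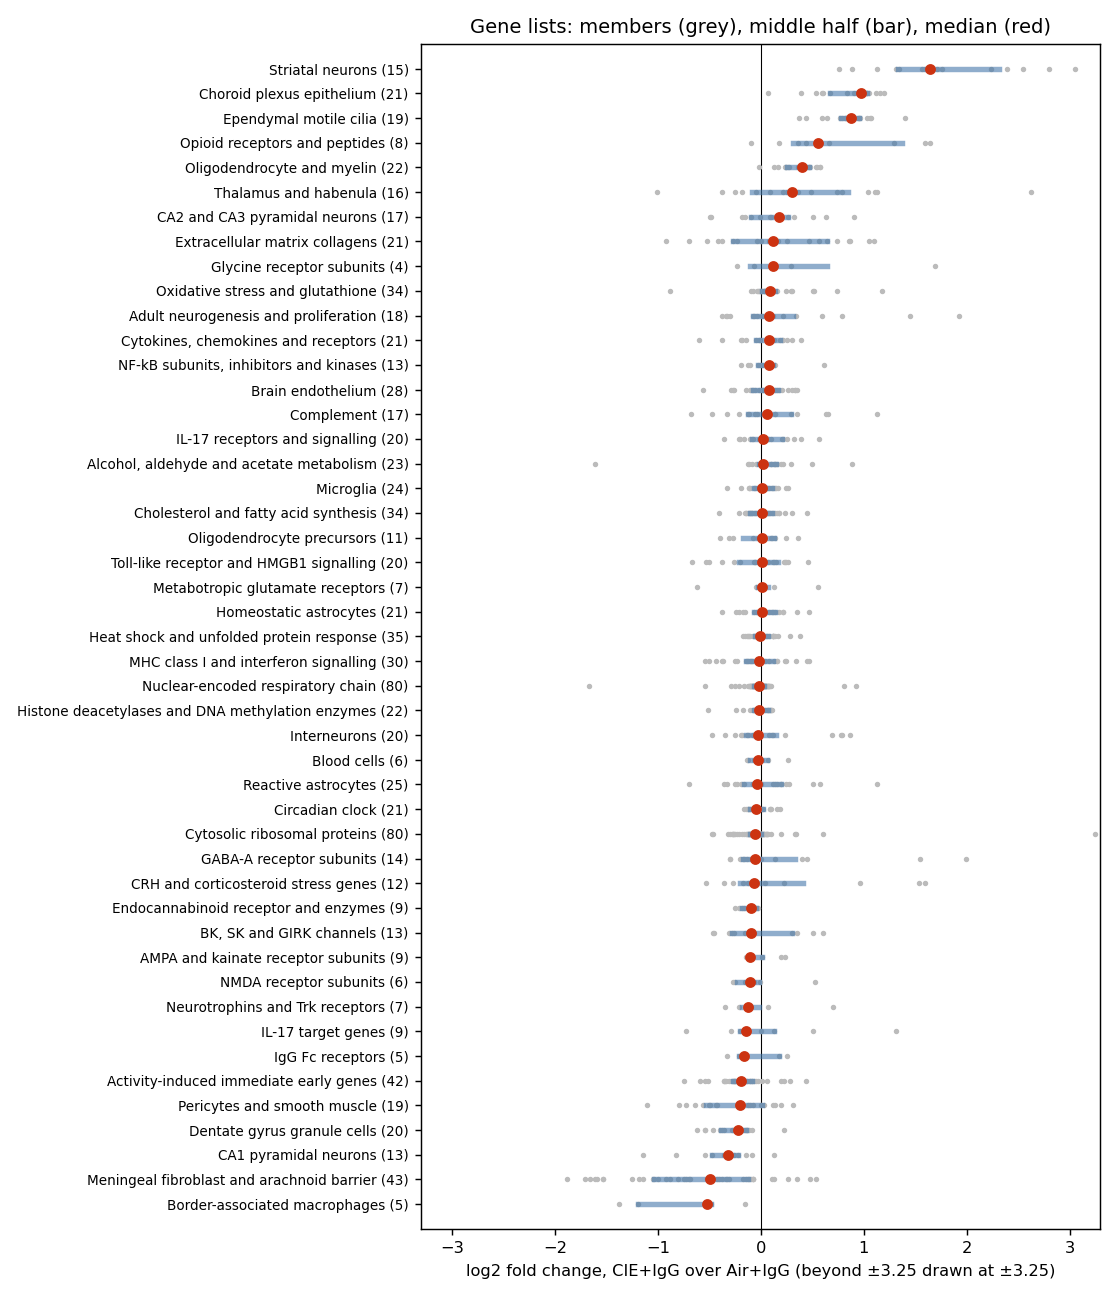
Log2 fold change (CIE+IgG over Air+IgG) of the tested members of 47 gene lists, with members in grey, their interquartile range as a bar and the median in red, and the number of members in parentheses. Medians run from 1.65 for striatal neurons to -0.53 for border-associated macrophages, and most lists lie near 0.

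The largest positive list medians belonged to tissue next to the hippocampus, and several of these lists had 1 library far from the others. The striatal list had all 15 tested genes above 0 (median 1.65) but none without overlap, against 4.64% of all genes. Drd1, the D1 dopamine receptor, measured 10.1, 7.93 and 11.6 CPM in air and 6.12, 8.19 and 73.0 CPM with ethanol. CIE+IgG 3 alone was high, and the log2 fold change of 1.56 (SE 1.02) became -0.48 without it. Adora2a, an adenosine receptor of striatal neurons, measured 1.19, 1.08 and 2.18 CPM in air and 1.93, 1.17 and 34.4 CPM with ethanol, the same library again. The summed striatal level was 271 to 287 CPM in the other 5 libraries and 1442 CPM in CIE+IgG 3. The list median was -0.02 within label numbers 54 to 60 and 2.60 within 37 to 39, the set that holds this library. The thalamic list, with a median of 0.30, also had its highest score in CIE+IgG 3 (0.66, against -0.43 to -0.01 in the others), and its median was -0.05 without CIE+IgG 3 and Air+IgG 2. In 2 of its 16 genes every ethanol library lay above every air library, against 4.64% of all genes. Chrnb4, a nicotinic receptor subunit of the habenula, measured 0.325, 0.403 and 0.284 CPM in air, 3 counts in each library, and 1.29, 0.819 and 4.10 CPM with ethanol (log2 fold change 2.63, SE 0.74). Within label numbers 54 to 60 its log2 difference was 0.83, and within 37 to 39 it was 2.55. Cartpt, the CART neuropeptide, measured 1.52, 0.403 and 1.52 CPM in air and 2.26, 1.52 and 3.91 CPM with ethanol (1.13, SE 0.52), separated by a narrow margin.

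Ventricular genes had their lowest scores in Air+IgG 2 (-1.23 for ependyma, -2.09 for choroid plexus) and their highest in CIE+IgG 3 (1.03 and 0.94). All 19 ependymal cilia genes (median 0.87) and all 21 choroid plexus genes (median 0.98) had higher values with ethanol. Of these, 1 and 0 members were without overlap, against 4.64% of all genes. The ependymal median was 0.55 within label numbers 54 to 60 and 1.15 within 37 to 39, and that of the choroid plexus 1.31 and 1.19. Without CIE+IgG 3 and Air+IgG 2 the medians were 0.23 and 0.33. Ttr, transthyretin, the main secreted protein of the choroid plexus, measured 3305, 427 and 2115 CPM in air and 4412, 2656 and 5009 CPM with ethanol (log2 fold change 1.05, SE 1.32). Air+IgG 2 was far below the other 5, while Air+IgG 1 exceeded CIE+IgG 2. Kl, the anti-ageing protein klotho made there, measured 217, 57.4 and 134 CPM in air and 265, 182 and 283 CPM with ethanol (0.84, SE 1.0), with the same low library. Foxj1, the master regulator of motile cilia, measured 16.9, 7.80 and 12.1 CPM in air and 26.7, 13.7 and 36.9 CPM with ethanol (1.07, SE 0.49). Of the 10 genes with the largest separated positive differences, Lrrc23, a radial spoke protein of cilia, had 4.55, 1.75 and 5.02 CPM in air and 7.95, 6.32 and 14.4 CPM with ethanol (1.32, SE 0.52), and Emilin2, an elastin-associated glycoprotein, was at 0.94 (SE 0.25).

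**Figure D4:**
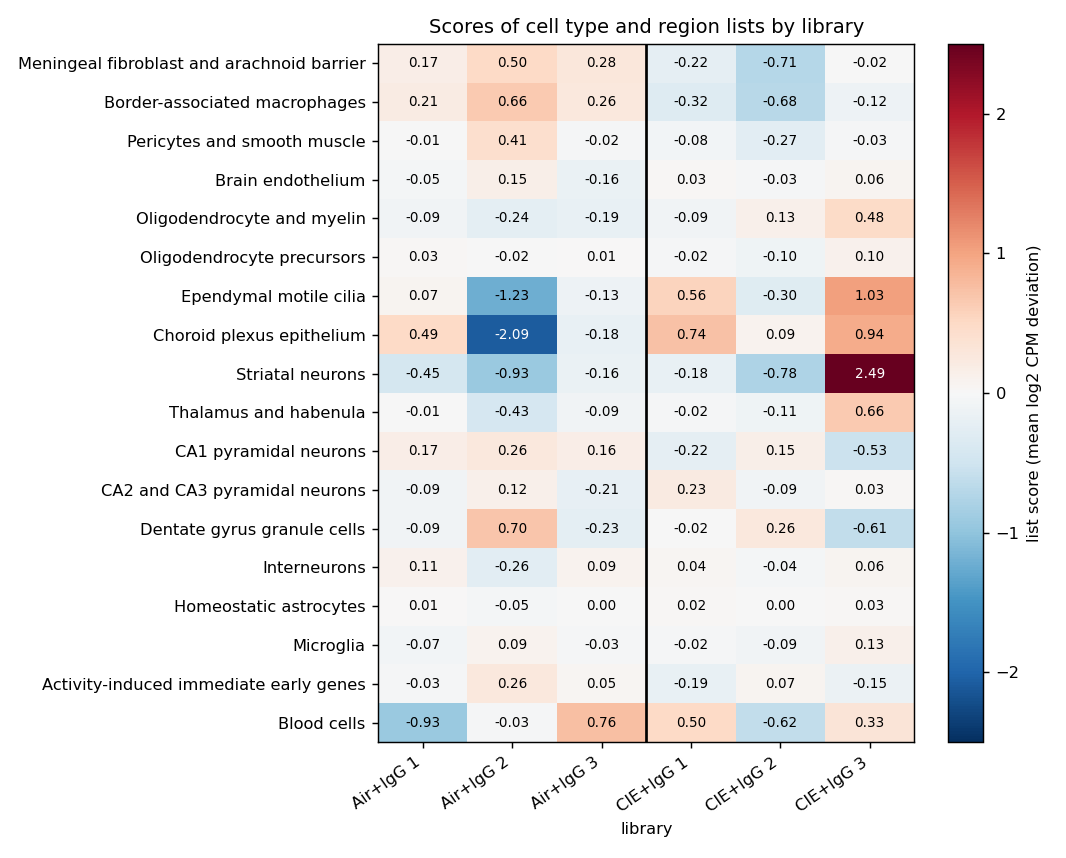
Scores of cell type and region lists in the 6 libraries, each the mean over its members of log2 CPM minus the gene's mean over the 6. CIE+IgG 3 stands out in the striatal list (2.49), Air+IgG 2 in the choroid plexus list (-2.09), and the meningeal scores are 0.17 to 0.50 in air and -0.71 to -0.02 with ethanol.

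In the meningeal list Air+IgG 2 had the highest score of the 6 (0.50), CIE+IgG 2 the lowest (-0.71), and CIE+IgG 3 the highest of the ethanol libraries (-0.02). Without CIE+IgG 3 and Air+IgG 2 the meningeal median was -0.40, with 4 of 43 genes above 0. The part of dissection in these differences was not tested.

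Hippocampal neuron lists leaned slightly lower with ethanol. CA1 genes were lower in 12 of 13 (median -0.32), and dentate granule cell genes in 19 of 20 (median -0.22), whereas CA2 and CA3 genes were higher in 11 of 17 (median 0.17). Fibcd1, a CA1 marker, measured 111, 129 and 107 CPM in air and 128, 101 and 69.0 CPM with ethanol (log2 fold change -0.22, SE 0.24), with CIE+IgG 3 lowest. Prox1, the granule cell transcription factor, measured 135, 265 and 122 CPM in air and 152, 198 and 118 CPM with ethanol (-0.16, SE 0.46), with Air+IgG 2 highest. Without CIE+IgG 3 and Air+IgG 2 the dentate median was 0.31 and that of CA1 was -0.07. The CA1 median was -0.64 without CIE+IgG 2, and that of CA2 and CA3 was -0.074 without CIE+IgG 1. The 42 activity-induced immediate early genes had 36 lower values (median -0.20), and 4 lay entirely below the air range, where 4.8% of all genes did. Without CIE+IgG 3 and Air+IgG 2 their median was -8.3e-05. Npas4, which neurons switch on with activity, measured 13.8, 13.7 and 16.4 CPM in air and 8.81, 11.4 and 10.6 CPM with ethanol (-0.51, SE 0.30). Jund, an AP-1 subunit, was lower in all ethanol libraries (-0.23, SE 0.10), but Fos (-0.34, SE 0.28), Fosb (-0.20, SE 0.28), Arc (-0.19, SE 0.36) and Egr1 (0.01, SE 0.22) overlapped.

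Genes that break down ethanol had a list median of 0.02 over 23 tested members. Aldh2, the mitochondrial enzyme that clears acetaldehyde, measured 58.1, 43.4 and 50.4 CPM in air and 59.0, 51.9 and 59.0 CPM with ethanol (log2 fold change 0.16, SE 0.18). Cat, catalase, which oxidises ethanol in brain, was at 0.13 (SE 0.09), and Adh5, the alcohol dehydrogenase of class III, at 0.02 (SE 0.07). All 3 overlapped. Of the 23 members 1 did not overlap, Aldh1a2, described among the meningeal genes, against 9.44% of all genes in either direction.

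The lists of GABA-A, NMDA, AMPA and kainate receptor subunits and of potassium channels had medians between -0.11 and -0.06. The GABA-A subunits had a median of -0.06 over 14 genes. Gabrq, a rare theta subunit, was at 1.99 (SE 0.94), with 3.65, 0.351 and 6.99 CPM in the ethanol libraries and 0.867, 0.269 and 1.52 CPM in air. The spread within the ethanol group was as wide as the difference. The NMDA subunits had a median of -0.11 over 6 (-0.18 to 0.14 over the alternative fits), with Grin1, the obligatory subunit, at -0.07 (SE 0.17), Grin2a at -0.27 (SE 0.36) and Grin2b at -0.16 (SE 0.33). AMPA and kainate subunits had a median of -0.11 over 9, and of -0.026 without Air+IgG 2. The BK, SK and GIRK potassium channels had a median of -0.10 over 13, which was -0.25 without CIE+IgG 2 and -0.42 within label numbers 37 to 39. Kcnn2, a small-conductance calcium-activated channel, measured 55.8, 57.8 and 57.1 CPM in air and 50.2, 48.0 and 39.4 CPM with ethanol (-0.31, SE 0.15), without overlap. Kcnma1, the BK channel pore, was at -0.16 (SE 0.18) and Kcnj9, a GIRK subunit, at -0.45 (SE 0.23).

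Stress and opioid genes included 1 separated member each, of 12 and 8 tested, against 9.44% of all genes in either direction. Nr3c1, the glucocorticoid receptor, measured 161, 170 and 162 CPM in air and 138, 156 and 158 CPM with ethanol (log2 fold change -0.13, SE 0.13). Crhbp, which binds corticotropin-releasing hormone, measured 24.3, 22.2 and 21.7 CPM in air and 13.7, 22.8 and 10.5 CPM with ethanol (-0.54, SE 0.32). It overlapped because of CIE+IgG 2. Pnoc, prepronociceptin, had 5.31, 4.57 and 5.97 CPM in air and 7.20, 6.32 and 11.6 CPM with ethanol (0.66, SE 0.25), and was separate. Penk, preproenkephalin, a striatal gene as well, rested on CIE+IgG 3 at 130 CPM against 11.3 to 20.2 CPM in the others, and Pdyn, prodynorphin, was at 0.44 (SE 0.63). Bdnf, the main activity-dependent neurotrophin, was at -0.22 (SE 0.34).

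The third group of the series was given an antibody against IL-17A, so the receptors and targets of this cytokine were examined in the ethanol and air groups. The 20 tested receptors and signalling genes had a median of 0.02. Il17ra, the shared receptor chain, measured 13.2, 10.5 and 10.8 CPM in air and 9.34, 11.4 and 9.04 CPM with ethanol (log2 fold change -0.22, SE 0.16), and Il17rc, its partner, was at 0.39 (SE 0.25). Both overlapped. Traf2, an adaptor, was separate and higher (0.21, SE 0.11), and Nfkbiz, an inducible coactivator of NF-kB targets, separate and lower (-0.20, SE 0.25). Of 23 target genes 9 were in the deposited table, and all 9 were tested. Their median was -0.14 (-0.24 to 0.15 over the alternative fits), and Lcn2, Cxcl1, Ccl2 and Il6 were not analysed here.

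The Toll-like receptor, NF-kB, cytokine, interferon and complement lists had medians between -0.02 and 0.08. In the Toll-like receptor list (20 genes, median 0.01), Tlr4, the endotoxin receptor, measured 3.79, 4.03 and 4.36 CPM in air and 2.36, 3.04 and 2.98 CPM with ethanol (log2 fold change -0.54, SE 0.22), and Tlr3, the double-stranded RNA sensor, was at -0.26 (SE 0.12). Both were lower in all ethanol libraries. Hmgb1, a danger signal, was at -0.07 (SE 0.08). Irf7, an interferon-induced factor, was higher in all ethanol libraries (0.47, SE 0.21), and its list had a median of -0.02. C3, the central complement protein, measured 4.12, 4.03 and 3.13 CPM in air and 8.16, 3.51 and 12.7 CPM with ethanol (1.12, SE 0.49), and C4b was at 0.35 (SE 0.15), both overlapping through CIE+IgG 2. Gfap, the astrocyte filament that marks gliosis, was at 0.12 (SE 0.14).

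Separated members numbered 3 higher and 1 lower of 34 oxidative stress genes, 3 higher and 1 lower of 34 cholesterol and fatty acid genes, 1 higher and 1 lower of 35 heat shock genes, and 1 lower of 21 clock genes, against 9.44% of all genes in either direction. Oxidative stress genes were higher in 26 of 34 (median 0.08). Without CIE+IgG 3 and Air+IgG 2 their median was -0.00012, with 17 of 34 genes higher. Gstm1, a glutathione transferase, measured 149, 141 and 141 CPM in air and 173, 157 and 198 CPM with ethanol (log2 fold change 0.30, SE 0.11). Dnajb1, a heat shock co-chaperone, was separate and higher (0.28, SE 0.11) in a list of 35 with a median of -0.01. Srebf1, a regulator of lipid synthesis, measured 84.2, 65.9 and 68.9 CPM in air and 93.7, 87.0 and 118 CPM with ethanol (0.45, SE 0.14). Mvd, an enzyme of cholesterol synthesis, lay the other way (-0.41, SE 0.15), also without overlap. The clock gene Arntl (BMAL1) was at -0.15 (SE 0.08), lower in all ethanol libraries, and the 21 clock genes had a median of -0.05. Ribosomal protein genes had a median of -0.06 and respiratory chain genes of -0.02, each over 80 members.

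**Figure D5:**
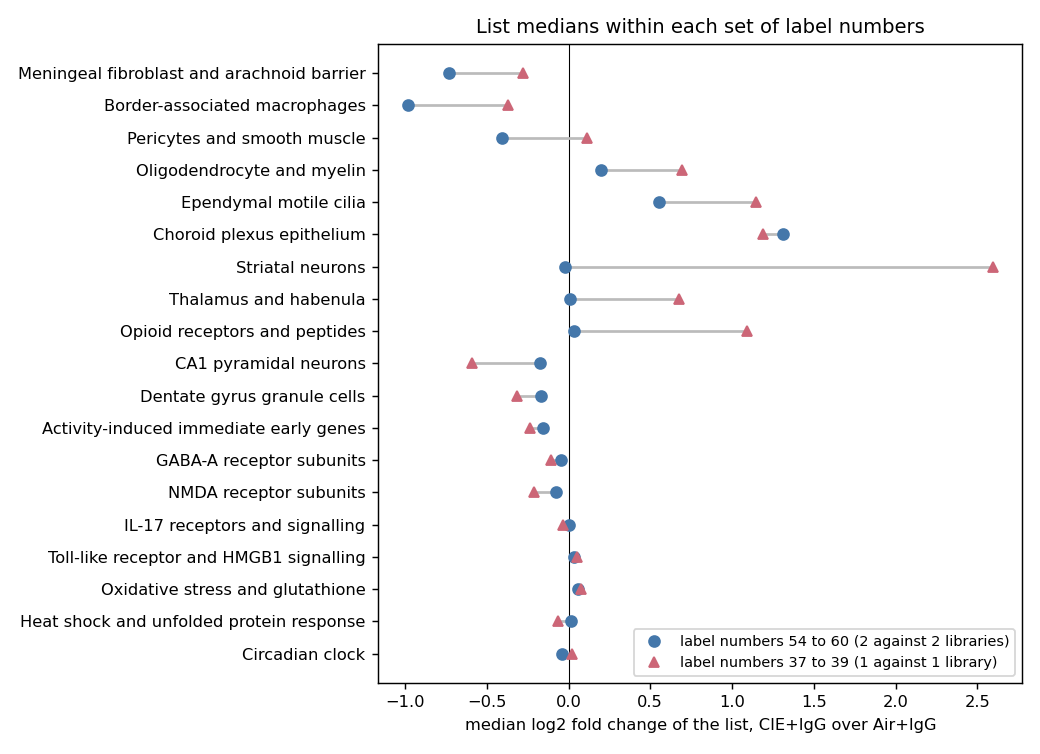
Median log2 fold change of gene lists within label numbers 54 to 60 (circles, 2 against 2 libraries) and 37 to 39 (triangles, 1 against 1). The meningeal medians are -0.73 and -0.28 and the myelin medians 0.20 and 0.70, while the striatal list is at -0.02 and 2.60.

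The antibody group shares the air libraries with this comparison, so its values are set beside the others without a test between them. Slc22a6 measured 4.03, 6.03 and 4.64 CPM in CIE+IL17 Ab, between the ethanol and air means. Ptgds measured 316, 354 and 292 CPM there, and Fn1 57.5, 54.9 and 57.6 CPM, at the lower end of the ethanol libraries. Mbp was at 2683 to 3128 CPM in that group. Of the hippocampal markers, Fibcd1 was at 22.9 to 39.2 CPM there, below the other 6 libraries, while Amigo2, a CA2 marker, was at 43.4 to 61.8 CPM, above their 18.7 to 40.3 CPM. The thalamic scores of its 3 libraries were 2.67 to 3.58, above the other 6.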

How the data were processed

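Strand-specific libraries of polyadenylated RNA were made from hippocampus with a TruSeq kit, per the labels' protocols. The authors deposited 1 table of expected counts per gene, not scaled between libraries. Per the submitters' processing notes, STAR 2.5.1a and RSEM 1.3.0 were used with build GRCm38, and the annotation release is not given in the sources used here. Such counts apportion ambiguous reads, which makes close paralogs and pseudogenes uncertain. Symbols from GENCODE M21 matched 14628 of 14779 identifiers.

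Counts were rounded, filtered with filterByExpr (minimum count 10) and scaled by TMM. The test was edgeR 4.0.16 in R 4.3.3 (glmQLFit, robust=TRUE, quasi-likelihood F-test, two-sided) fitted to all 9 libraries by group (residual degrees of freedom: 6), with Benjamini-Hochberg adjustment over 14696 genes. The third group thus shares in the estimate of the spread. DESeq2 1.42.0 and limma-voom (limma 3.58.1) were alternatives. Standard errors were taken as |log2 fold change|/√F. Values within a set of label numbers used log2(CPM + 0.5), and list scores log2 CPM with a prior count of 2. All 3 tools were tested on a single simulated data set, where DESeq2 made the most false calls. The members and gene lists were chosen with earlier results of these data known. Genes named are the 15 with the smallest p, those called by any tool, the 10 largest separated changes each way at a mean of at least 5 CPM, and of each list the 2 smallest p and its preset members. Any other is said to be named after its values were seen. Alternatives were other scaling, filters, tools, blocks and left-out libraries.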

Additional observations from a re-analysis of the deposited data

How the results depend on the processing

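edgeR called 0 genes in every alternative fit run, and the main fit called 0 also at an adjusted p under 0.1. limma-voom, run only on all 9 libraries, called 0 as well, against 6 with the DESeq2 Wald test. With edgeR the number at an unadjusted p under 0.05 was 583 in the fit of the 6 libraries alone and 122 within label numbers 54 to 60, against 406. It was 755 without CIE+IgG 2, 684 without CIE+IL17 Ab 1, 207 without CIE+IgG 3 and 222 without CIE+IgG 3 and Air+IgG 2. Fits of DESeq2 with libraries left out were chosen after seeing the data. They called 8 genes in the 6 libraries alone, 2 within 54 to 60, 3 without CIE+IgG 3 and Air+IgG 2, and 2 (without CIE+IgG 1) to 21 (without CIE+IgG 2) when 1 library was left out. Same-numbered libraries correlated at -0.021, 0.249 and 0.194 in their deviations from the group means, and differently numbered ones at -0.253 to 0.167. Air+IgG 3 and CIE+IgG 3 are also the libraries of label numbers 37 to 39. These values do not settle whether the numbers pair the samples, and the main fit did not pair them. With a replicate block edgeR called 0 genes, with 307 at an unadjusted p under 0.05 against 406.

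Among the named genes, signs changed only in some that passed no test. Over the fits that left out 1 library, the log2 fold change ran from -0.476 to 2.04 for Drd1, -0.364 to 2.11 for Penk, -0.020 to 1.47 for Tcf7l2 and -0.145 to 0.739 for Pdyn, lowest without CIE+IgG 3 in all 4. It ran from -0.365 to 0.270 for Prox1, -0.492 to 0.171 for Arc, -0.110 to 0.208 for Egr1, -0.466 to 0.0978 for Bdnf and -0.104 to 0.0378 for P2ry12, highest without Air+IgG 2 in all 5. For Grin1 it was -0.181 to 0.0735, for Slc22a8 -0.385 to 0.0911, for Adh5 -0.0057 to 0.0407 and for Fosb -0.325 to 0.00011. Within label numbers 54 to 60 it was -0.336 for Drd1, -0.272 for Penk, -0.123 for Tcf7l2, -0.226 for Pdyn, -0.0998 for Egr1 and 0.0237 for P2ry12. Without both CIE+IgG 3 and Air+IgG 2 it was -0.605 for Drd1, -0.123 for Adora2a, -0.213 for Penk, 0.0701 for Fibcd1, 0.443 for Prox1, 0.178 for C1ql2, 0.296 for Arc, 0.375 for Bdnf, 0.0927 for P2ry12, 0.188 for Grin1, 0.249 for Grin2a and 0.0942 for Grin2b. The cause was not tested. The median SE of a log2 fold change was 0.16, with 3 libraries a side of 8321339 to 10486963 counts each.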

Other observations

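Fat2 and Cbln3, known for their expression in cerebellar granule cells, were named after their values were seen. Fat2 measured 26.7, 1.48 and 7.86 CPM in the air libraries and 1.07, 0.702 and 3.26 CPM in the ethanol libraries, with Air+IgG 1 highest. Cbln3 measured 12.6, 0.403 and 4.17 CPM in air and 0.859, 0.234 and 1.58 CPM with ethanol, and Air+IgG 1 was again highest. Both groups overlapped through Air+IgG 2, and DESeq2 called both genes when Air+IgG 2 was left out.

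Of 12015 genes with a mean of at least 5 CPM, 1089 did not overlap between the groups, 509 higher and 580 lower with ethanol. Among them 5 were over 2 times higher and 12 over 2 times lower. Over all 14696 genes tested, overlapping or not, 245 had a log2 fold change above 1 and 63 had one below -1.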
